A study of Mus musculus with 56 samples.

Results

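The binding of PU.1 across the whole genome was followed in mouse bone marrow-derived macrophages (BMDMs) that were left untreated (ctrl) or were given IL-4 for 1 hr (1hIL4). The members are the 4 PU.1 ChIP-seq peak lists among the 56 samples of the series, 2 ctrl and 2 1hIL4, taken by their antibody and treatment labels, and every peak in them was used. ChIP-seq sequences the DNA fragments that an antibody pulls down together with a protein. The cells came from wild-type mice of 8 to 12 weeks, were differentiated for 6 days in L929 supernatant, which supplies M-CSF, and the treated samples received IL-4 at 20 ng/ml. The 2 samples of a group are described by the study as independent biological replicates. All 4 samples share the differentiation protocol and carry no engineered allele. The chromatin was cross-linked with DSG and formaldehyde, which keeps indirectly bound DNA as well as direct contacts, so a peak is not by itself a direct contact of PU.1 with DNA.

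PU.1, encoded by Spi1, is an ETS-domain transcription factor that defines the macrophage lineage. It binds DNA around a GGAA core, opens chromatin at a large set of macrophage enhancers together with C/EBP, AP-1 and RUNX factors, and marks places where signal-dependent factors later act. IL-4 activates STAT6 through Janus kinases, and STAT6 dimers recognise a palindrome of TTC and GAA spaced by 4 bases. p300, a histone acetyltransferase, the acetylated histone mark H3K27Ac and RNA polymerase II phosphorylated at serine 5 of its tail (RNAPII-pS5) accompany active enhancers and promoters.

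Sequences under some of the named sites are shown first, picked by the motifs they hold. Each line holds 151 bases centred on a merged PU.1 site, 5′ to 3′ on the plus strand of GRCm38 (mm10, RefSeq sequence), in lower case. Capitals mark GGAA or its complement TTCC, the core of the PU.1 motif, and TTCNNNNGAA, the STAT6 motif. The first 5 sites are among the 12 with the largest gain of PU.1 and were picked for holding both motifs. Of these 12, the windows of Gm20125, which had the largest change, and of Ang6 hold neither and are not shown.
Tlr4, chr4:66852081-66852231: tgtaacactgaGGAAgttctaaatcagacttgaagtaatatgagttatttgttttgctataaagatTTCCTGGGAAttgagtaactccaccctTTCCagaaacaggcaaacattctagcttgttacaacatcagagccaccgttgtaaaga
Asap1, chr15:64270145-64270295: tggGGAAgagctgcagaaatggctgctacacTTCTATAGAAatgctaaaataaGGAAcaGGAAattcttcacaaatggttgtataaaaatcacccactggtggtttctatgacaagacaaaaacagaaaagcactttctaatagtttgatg
Jak2, chr19:29239628-29239778: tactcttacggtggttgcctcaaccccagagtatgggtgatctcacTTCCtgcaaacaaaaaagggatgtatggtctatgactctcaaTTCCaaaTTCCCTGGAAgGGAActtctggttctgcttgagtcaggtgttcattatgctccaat
Slc1a2, chr2:102791831-102791981: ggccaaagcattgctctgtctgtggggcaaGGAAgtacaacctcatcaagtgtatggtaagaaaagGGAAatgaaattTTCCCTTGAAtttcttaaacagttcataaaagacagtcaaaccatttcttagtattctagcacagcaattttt
Lcp1, chr14:75172955-75173105: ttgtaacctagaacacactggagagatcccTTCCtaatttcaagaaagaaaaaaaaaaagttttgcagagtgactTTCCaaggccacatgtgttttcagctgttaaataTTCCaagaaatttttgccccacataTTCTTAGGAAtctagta
The next pair gained a peak after IL-4 where neither ctrl list had one, and is shown because the STAT6 motif lies near a GGAA core there too.
Akirin2, chr4:34457321-34457471: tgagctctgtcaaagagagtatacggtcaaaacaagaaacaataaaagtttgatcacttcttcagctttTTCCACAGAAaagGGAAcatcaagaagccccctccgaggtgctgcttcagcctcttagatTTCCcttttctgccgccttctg
E230029C05Rik, chr7:90026067-90026217: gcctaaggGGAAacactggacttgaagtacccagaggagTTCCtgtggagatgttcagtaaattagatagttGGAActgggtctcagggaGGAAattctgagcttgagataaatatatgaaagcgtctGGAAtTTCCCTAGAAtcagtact
The last 5 lost score (the first 3) or lost the peak (the last pair), and were picked because they hold GGAA cores and no STAT6 motif. The window of the lost Tmem55b site, not shown, holds a STAT6 motif. Of all tested sites, only 6.10% hold that motif within 100 bp of the centre.
Rfwd2, chr1:159186979-159187129: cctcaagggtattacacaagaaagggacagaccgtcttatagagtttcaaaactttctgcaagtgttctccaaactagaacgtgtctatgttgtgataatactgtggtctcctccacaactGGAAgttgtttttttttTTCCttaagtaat
Ppp2r5a, chr1:191421206-191421356: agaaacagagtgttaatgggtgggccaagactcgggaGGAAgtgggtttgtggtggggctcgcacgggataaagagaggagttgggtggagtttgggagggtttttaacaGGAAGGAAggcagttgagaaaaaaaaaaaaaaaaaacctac
Mir5130, chr14:102911697-102911847: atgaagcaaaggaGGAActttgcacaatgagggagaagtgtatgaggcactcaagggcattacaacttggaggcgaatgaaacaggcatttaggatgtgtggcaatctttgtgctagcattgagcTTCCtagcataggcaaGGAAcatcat
Cdkn2aipnl, chr11:51915680-51915830: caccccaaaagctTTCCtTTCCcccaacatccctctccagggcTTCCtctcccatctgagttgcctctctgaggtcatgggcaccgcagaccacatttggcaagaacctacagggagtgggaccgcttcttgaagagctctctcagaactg
S100a11, chr3:93520215-93520365: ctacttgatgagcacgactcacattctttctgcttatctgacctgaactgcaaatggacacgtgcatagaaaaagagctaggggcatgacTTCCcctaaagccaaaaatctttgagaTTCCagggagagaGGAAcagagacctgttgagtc
A match is a description of the letters in the window and not a bound site. In these windows the STAT6 motif read TTCCTGGGAA near Tlr4, TTCTATAGAA near Asap1, TTCCCTGGAA near Jak2, TTCCCTTGAA near Slc1a2, TTCTTAGGAA near Lcp1, TTCCACAGAA near Akirin2 and TTCCCTAGAA near E230029C05Rik.

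The lists held 70936 and 65055 PU.1 peaks in ctrl and 65403 and 71027 peaks in 1hIL4, so IL-4 did not move the number of peaks beyond the spread between replicates (exact two-sided permutation test, p = 0.667). With 2 samples against 2, the smallest p this test allows is 0.333. Promoters held 5.65% and 4.88% of ctrl peaks and 5.32% and 5.21% of 1hIL4 peaks (p = 1 by the same exact test). Intergenic peaks made up 49.97% and 51.9% of the ctrl lists and 47.9% and 48.6% of the 1hIL4 lists, a difference of -2.66 percentage points that is without overlap of the groups (exact p = 0.333). Introns held 41.3% and 40.4% in ctrl and 43.5% and 43.1% in 1hIL4 (exact p = 0.333). Each peak carries a MACS2 score, a p- or q-value on the −log10 scale, which grows with sequencing depth as well as with binding. Its median was 8.66 and 6.98 in ctrl and 9.95 and 8.27 in 1hIL4. The files hold no reads, and the sequencing depth could only be read roughly from the peak numbers.

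The macrophage identity of the samples was read from peaks of PU.1 and RNAPII-pS5. All 8 macrophage markers (Csf1r, Adgre1, Itgam, Cd68, Lyz2, Fcgr1, Mertk and Spi1) were the nearest gene of a PU.1 peak in each of the 4 lists and of an RNAPII-pS5 peak in each of the 4 lists of that antibody. Only 1 or 2 of the 8 had an RNAPII-pS5 peak annotated as promoter, so that stricter reading was uninformative. Peaks of RNAPII-pS5 nearest to markers of other marrow cells were found for 2 to 3 of 6 B cell, 2 to 3 of 5 T cell, 4 to 5 of 7 neutrophil, 1 of 5 mast cell, 1 of 5 erythroid and 1 of 5 stromal genes, with the same or nearly the same counts in ctrl and 1hIL4. PU.1 peaks were found for 2 to 3 of the 6 B cell, 1 to 3 of the 5 T cell, 3 to 4 of the 7 neutrophil, 3 to 4 of the 5 mast cell, 2 of the 5 erythroid and 3 of the 5 stromal genes. Their part in the PU.1 results was not tested.

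Peaks of the 4 lists merged into 107213 sites, of which 38796 had a peak in all 4 lists and were compared by score. Of the others, 39217 sites were seen in 1 list, 15262 in 2 and 13938 in 3. A peak in both 1hIL4 lists and in neither ctrl list was found at 3853 sites (gained), and the reverse at 2496 sites (lost). These counts are to be read against the 4 patterns that join 1 list of each group, which held 1301 to 3017 sites each. The gained sites thus outnumbered each such pattern and the lost sites did not. The second ctrl list was the thinnest by score, and 5754 sites lacked a peak in that list alone. The replicates correlated at r = 0.794 for the ctrl pair and 0.856 for the 1hIL4 pair, and pairs across groups at 0.770 to 0.814 (Pearson's r of log2 scores over 38796 sites, as a description).

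PU.1 score rose at 453 sites and fell at 33 sites after IL-4 among the 38796 tested, that is 1.17% and 0.0851% of them. The test was limma with a variance trend on log2 scores centred on each sample's median, with Benjamini-Hochberg adjusted p of at most 0.05. The sites that rose lay nearest to 401 genes. Their median score was 16.97 and 9.78 in ctrl and 62.4 and 61.7 in 1hIL4, and the median change was 1.86 on the log2 scale (range 0.65 to 4.13), with a change of at least 2-fold at 432 sites. At the 33 sites that fell, the median score was 33.3 and 26.4 in ctrl and 9.08 and 5.14 in 1hIL4, and the median change was -2.08, with 31 sites at 2-fold or more. Across all tested sites, 89.0% changed by less than 2-fold, with a median change of -0.03 and a median SE of 0.56. At the unadjusted p of 0.05 that the study used as its cut-off for changing regions, 2350 sites (6.06%) were higher and 1535 (3.96%) lower. The groups did not overlap at any of the 453 and 33 sites, but they did not overlap at 15212 of all tested sites either (39.2%). The last site called higher had an adjusted p of 0.0497 and the first one not called 0.0510.

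The calls rest on the variance trend, which gives strong sites a smaller assumed spread, and on both 1hIL4 samples. Without the trend, or without 1hIL4 replicate 2, limma called 0 sites in either direction, with 1857 higher and 1709 lower at unadjusted p without the trend and 1213 and 1002 without that sample. The counts were 76 higher and 3 lower without 1hIL4 replicate 1, 767 and 108 without ctrl replicate 1, and 541 and 16 without ctrl replicate 2. With no centring on the sample medians the median change of all sites moved from -0.03 to 0.30, and 492 sites were higher and 2 lower, so the count of lower sites is tied to the centring.

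**Figure D1:**
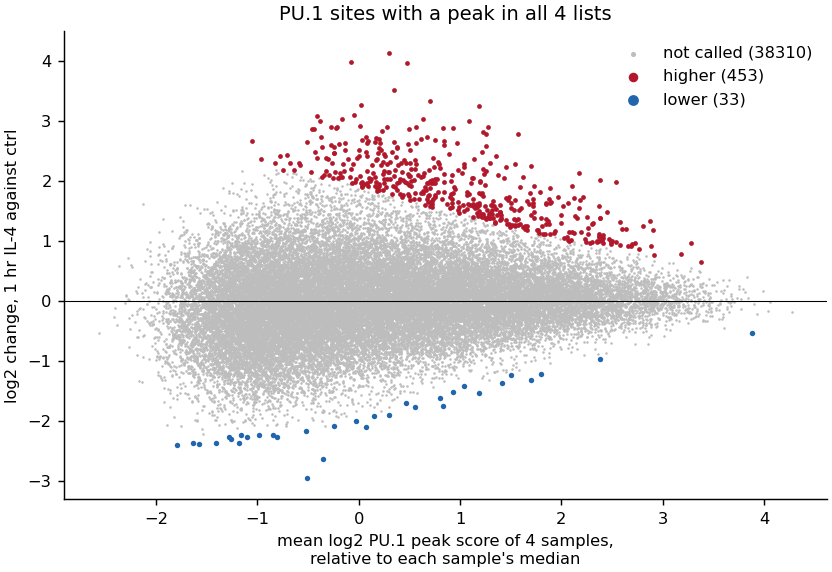
PU.1 change after 1 hr of IL-4 by strength of the site. The x axis is the mean log2 PU.1 peak score of the 4 samples relative to each sample's median, the y axis the log2 change of 1hIL4 against ctrl, and each point is 1 of the 38796 sites with a peak in all 4 lists, with the 453 sites called higher in red, the 33 called lower in blue and the rest in grey. The red points reach a change of 4.13 and lie mostly right of the middle, while weak sites scatter widely without a call.

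Most calls were at strong sites. Split by mean score into 10 bins of equal size, the weakest 4 bins held 0, 1, 4 and 9 of the sites that rose, and the strongest 4 held 77, 78, 101 and 87. The sites that fell were spread evenly, with 2 to 5 in each bin. The strength measure includes the 1hIL4 scores themselves, and the SD of the change over sites fell from 0.72 in bin 5 to 0.36 in the strongest, so the power to call differs along this axis.

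The 12 sites with the largest gain are described by their nearest gene. Near Tlr4, the receptor for LPS, an intergenic site 24.3 kb from the start (chr4:66851243-66852513) scored 8 and 5.64 in ctrl and 80.2 and 90.5 in 1hIL4, a change of 3.33 ± 0.44 (SE, n = 2 per group, limma, adjusted p = 7.79e-08). Both treated samples were far above both controls. The Tlr4 promoter itself, just upstream of the start, scored 102 and 83.1 in ctrl and 109 and 92.8 in 1hIL4 and was not called (change -0.20, limma, adjusted p = 0.839). The promoter site was the stronger one in ctrl, and the difference between both sites was not tested.

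Jak2, a kinase that cytokine receptors use, had an intergenic site 12.1 kb upstream (chr19:29239379-29240028) with scores of 5.87 and 3.2 in ctrl and 60.9 and 35.9 in 1hIL4 (change 3.10 ± 0.55). Asap1, which acts on Arf GTPases at the membrane, had an intronic site (chr15:64269939-64270481) at 13.1 and 7.06 in ctrl and 114 and 116 in 1hIL4 (change 3.25 ± 0.38), and it was 1 of 9 genes with 3 or more sites that rose. The intronic site of Lcp1, the actin-bundling protein of leukocytes (chr14:75172724-75173337), went from 15.6 and 6.20 to 104 and 94.5 (change 3.0 ± 0.40). The 2 treated samples lay close together at these last 2 sites and well apart from ctrl. Others of the 12 were nearest to Gm20125, 0610039K10Rik, Als2cr12, Gng12, Ang6, Slc1a2 and Prkcb, with changes of 2.99 to 4.13. None of the 12 was a promoter, 5 were in introns and 7 intergenic, and the distance to the start of the nearest gene ran from 1.63 to 349 kb. A STAT6 motif was within 100 bp of the centre at 8 of the 12 and was not found at, among others, the Gm20125, Ang6 and Prkcb sites. The Als2cr12 site shares 120 stretches of 30 bases with the window of the gained Gm20257 site on the same chromosome, so reads of these near-identical copies cannot be told apart with certainty.

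The largest losses were smaller than the largest gains. An intergenic site 45.3 kb upstream of Rfwd2, an E3 ubiquitin ligase (chr1:159186808-159187300), scored 33.3 and 19.5 in ctrl and 4.94 and 3.50 in 1hIL4, a change of -2.95 ± 0.60 (limma, adjusted p = 0.000967). A site 24.2 kb upstream of Ppp2r5a, a regulatory subunit of protein phosphatase 2A (chr1:191421070-191421548), went from 34.6 and 18.7 to 5.24 and 5.14 (change -2.63 ± 0.58, limma, adjusted p = 0.00361). The groups were separate at both sites, which the rule that chose the 12 required. The ctrl samples lay farther apart than the 1hIL4 samples. The intergenic site nearest to Mir5130 (chr14:102911612-102911932) scored 6.66 and 11.3 in ctrl and 2.48 and 1.72 in 1hIL4. The remaining 9 of the 12 lay nearest to Hdac9, 4932411N23Rik, Tbpl1, Ugt1a6a, 1100001G20Rik, Pvrl3, Alppl2, C920009B18Rik and Wdr26, with changes of -2.38 to -2.23, and the Ugt1a6a site was the one promoter among them. None of the 12 held a STAT6 motif. The 4932411N23Rik, Pvrl3 and C920009B18Rik sites lie in L1Md_T repeats and share 73 to 100 stretches of 30 bases with each other, so their values are uncertain. Without centring 2 of the 33 lower calls were left.

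**Figure D2:**
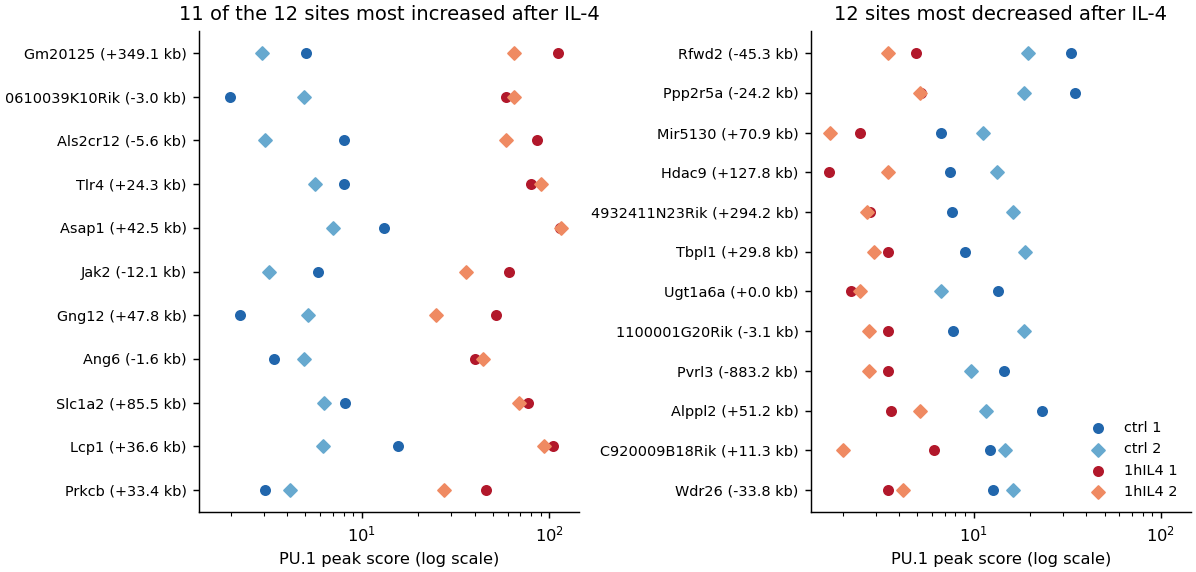
PU.1 peak score at 11 of the 12 sites with the largest gain (left) and the 12 with the largest loss (right) after 1 hr of IL-4. The x axis is the score on a log scale, each row is a site named by its nearest gene with its distance from the start in kb, blue points are the 2 ctrl samples and red points the 2 1hIL4 samples. The Tlr4 site moves from 8 and 5.64 to 80.2 and 90.5, and the Rfwd2 site from 33.3 and 19.5 to 4.94 and 3.50.

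Gained and lost sites were at their strongest near other genes. The 8 gained sites with the highest lower score were nearest to E230029C05Rik (74.3 and 88.1 in 1hIL4), Gm20257 (84.3 and 60.1), Itsn2, an endocytic scaffold (57.7 and 63.9), D430020J02Rik, Mir5131, Zbtb5, Akirin2, a nuclear factor of inflammatory transcription (79.3 and 47.8), and Gm20740. All 8 held a STAT6 motif within 100 bp of the centre, and p300 peaks were present at all 8 in both 1hIL4 lists and at 2 of 8 in both ctrl lists. The 8 strongest lost sites were weaker and lay nearest to Tmem68 (16.9 and 26.4 in ctrl), Tmem55b, Cdkn2aipnl, Calcrl, S100a11, Slc23a2, 2210018M11Rik and 2610017I09Rik. Among these, 1 of 8 held a STAT6 motif, 2 were promoters, and p300 was present in both 1hIL4 lists at 4 and in both ctrl lists at 5. The highest scores of all belonged to sites that hardly moved. The strongest was an intronic site 63.3 kb from the start of its nearest gene, Smc6, a subunit of a chromosome-maintenance complex. It scored 309 and 235 in ctrl and 311 and 287 in 1hIL4 (change -0.18 ± 0.12). The 8 strongest, nearest to Smc6, Gm13498, Sf3b2, Slc22a27, Jazf1, Cmtm6, 9230105E05Rik and Rnf130, changed by -0.53 to 0.16. One of them, 9230105E05Rik, was called lower at scores of 246 and 220 in ctrl and 218 and 188 in 1hIL4 (limma, adjusted p = 0.0396).

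The STAT6 motif was more frequent at the sites that rose than at the tested sites as a whole. TTCNNNNGAA on either strand within 100 bp of the centre was present at 2367 of the 38796 tested sites (6.10%), at 211 of the 453 that rose (46.6%, Wilson 95% interval 42.0 to 51.2%) and at 0 of the 33 that fell, which allows a share of up to 9.09% by a floor of 3 counts. It was at 21.0% of gained and 1.92% of lost sites, against 3.67% of sites with a peak in 1 list of each group. These intervals cover counting only, since sites are not replicates. Of the sites with the motif, 8.91% rose, against 0.66% of those without it. The median change was 0.42 with the motif and -0.05 without, and 74.7% against 46.1% of sites had a positive change. In each of the 4 pairs of a 1hIL4 with a ctrl sample, the median at sites with the motif was 0.41 to 0.46, and the 2 differences between replicates were 0.03 and 0.002. Per sample, the median centred log2 score of sites with the motif exceeded that of sites without it by 0.20 and 0.16 in ctrl and by 0.85 and 0.88 in 1hIL4 (difference 0.69, exact two-sided permutation p = 0.333, the smallest possible). The share also climbed with the size of the change, from 2.36% of sites below -1 and 1.94% between -1 and -0.5 to 32.7% between 1.5 and 2 and 51.7% of the 201 sites above 2.

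The PU.1 core GGAA was nearly everywhere, at 98.8% of tested sites and 98.9% of the sites that rose. GAGGAA was at 61.2% of all tested, 53.4% of the sites that rose and 54.5% of those that fell. The longer GAGGAAGT, which contains both shorter ones, was at 29.5% of all tested sites and at 13.7% of those that rose. Repeats differed between these groups of sites. L1 elements, a family of LINE repeats, held 18.9% of all tested sites, and 74.6% of those L1 sites had GAGGAAGT against 19.04% of the sites outside L1. L1 sites were 5.96% of the sites that rose (27 of 453), 13.4% of the gained, 36.6% of the lost and 26.9% of those seen in 1 list of each group. Outside L1, GAGGAAGT was at 13.8% of sites that rose, 11.5% of those that fell, 13.2% of gained and 9.79% of lost sites. The median change was -0.23 in L1 and 0.01 outside. The young L1Md_T and L1Md_A families made up 2722 and 2430 of the L1 sites, with a median change of -0.31 in each, and their copies are near-identical, so the placement of reads among them is uncertain.

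The motifs of other macrophage factors were at similar shares in all tested sites and in the sites that rose. TGANTCA (AP-1) was at 11.03% and 9.93%, TTNNGCAA (C/EBP) at 11.5% and 13.02%, TGTGGT (RUNX) at 15.8% and 18.98% and GGAANNGAAA (a PU.1-IRF composite, which contains GGAA) at 8.49% and 10.2%. At the 33 sites that fell, AP-1 was at 8 (24.2%, Wilson 95% interval 12.8 to 41.0%), RUNX at 9 (27.3%, 15.1 to 44.2%), C/EBP at 6 (18.2%, 8.61 to 34.4%) and the PU.1-IRF composite at 2 (6.06%, 1.68 to 19.6%). All motifs were searched on both strands, and the GGAA core can overlap the STAT6 motif.

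**Figure D3:**
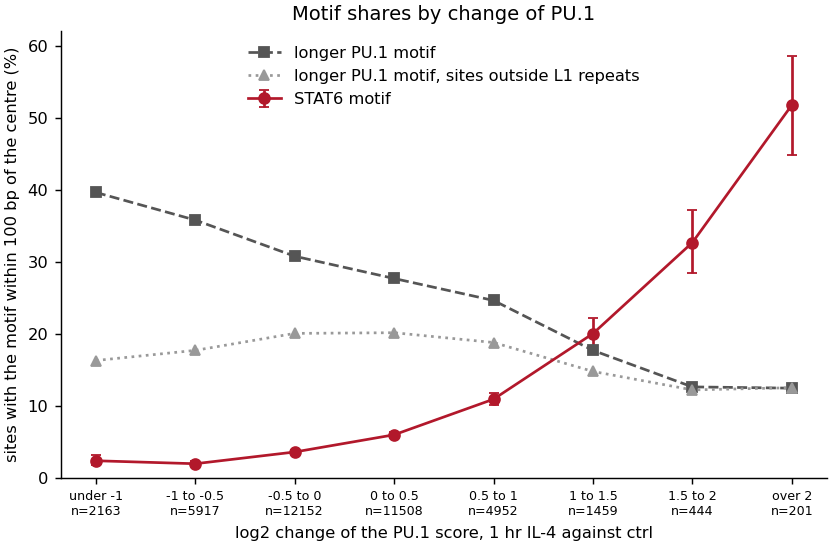
Share of PU.1 sites with a motif by the change of PU.1 after 1 hr of IL-4. The x axis gives bins of the log2 change with their number of sites, the y axis the percent of sites with the motif within 100 bp of the centre, the red line TTCNNNNGAA with Wilson 95% intervals, the dark dashed line GAGGAAGT at all sites and the light dotted line GAGGAAGT at sites outside L1 repeats. The STAT6 motif goes from 2.36% in the lowest bin to 51.7% in the highest, and the dotted line stays between 12.2 and 20.1%.

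By position, the sites that rose were 3.09% promoters, 49.7% intronic and 45.3% intergenic, against 5.37%, 44.1% and 47.4% of all tested sites. Of promoter sites, 14 of 2083 rose (0.672%), of intronic sites 225 of 17120 and of intergenic sites 205 of 18370. The median distance to the nearest start was 25.2 kb at sites that rose and 24.2 kb at all tested sites. Lost sites were more often intergenic (59.3%) than gained sites (44.1%), with 50.7% of the sites seen in 1 list of each group. Lost sites were also more often on the Y chromosome, at 2.96% against 0.986% of gained and 1.96% of the 1-of-each sites. No chromosome Y site rose or fell among the 265 tested. Over all tested sites 1.17% rose and 0.0851% fell, so few calls would be found among 265 in any case. The 3 genes with the most merged sites, Gm20871 (335), Gm20738 (181) and Gm20736 (149), have sites spread over 27174 kb or more. Only 60, 34 and 17 of these sites were tested, and none was called. At the 1.17% and 0.0851% called over all sites, few calls would be found among them in any case.

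p300, measured in other libraries, moved with PU.1. Of the 453 sites that rose, 360 had a p300 peak in all 4 p300 lists, and 316 of these (87.8%) were called higher and 0 lower, with a median change of 1.75. The background was 11.3% called higher and 12.5% lower over the 34685 merged PU.1 sites where p300 could be tested. Over the 23890 of these with a PU.1 peak in all 4 lists it was 11.7% and 11.2%. At the sites where PU.1 fell, 25 could be tested, with a median p300 change of -0.80 and 12 called lower and 0 higher. The median over these 25 was -0.84 without p300 1hIL4 replicate 1 and -0.77 without replicate 2. Fewer were then called lower, there and over all tested sites, with 1 sample left in the group. With the PU.1 calls made anew, the p300 median at sites that fell was -0.54 without PU.1 ctrl replicate 1 (78 sites), -0.53 without ctrl replicate 2 (15 sites) and -1.29 without 1hIL4 replicate 1 (3 sites). The first p300 ctrl list held 44787 peaks against 66710 to 69360 in the other 3. Without that list, 424 of the sites that rose could be tested, with a median change of 1.92, beside -0.07 over all tested sites. At the Tlr4 site the p300 change was 2.19 and at the Rfwd2 site -1.29.

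H3K27Ac and RNAPII-pS5 were lower in coverage of PU.1 sites. The H3K27Ac values are normalized tags and those of p300 and RNAPII-pS5 are MACS2 scores, so the sizes of change cannot be compared between them. H3K27Ac was tested at 194 of the sites that rose, of which 187 (96.4%) were called higher and 0 lower, with a median change of 1.60. Its background was 28.6% higher and 32.7% lower over 20527 merged PU.1 sites. Over the 13295 of these with a PU.1 peak in all 4 lists it was 27.5% and 36.7%. The H3K27Ac replicates differed little, with a variance of 1.36 and 1.42 times counting error, and 1 region can serve several PU.1 sites. At the sites where PU.1 fell, all 9 that could be tested were called lower (median -0.75). That median was -0.49 without PU.1 ctrl replicate 1 (28 sites) and -1.46 without PU.1 1hIL4 replicate 1 (1 site). RNAPII-pS5 was tested at 143 of the sites that rose, with a median change of 0.98, and 34 (23.8%) were called higher and 0 lower. The background was 1.47% and 0.55% over 16546 merged PU.1 sites, and 1.51% and 0.54% over the 11510 with a PU.1 peak in all 4 lists. Leaving out RNAPII-pS5 1hIL4 replicate 1 gave a median of 0.96 (143 sites), and leaving out replicate 2 gave 1.02 (147 sites). Fewer were then called higher, there and over all tested sites, with 1 sample left in the group. Only 3 sites where PU.1 fell had RNAPII-pS5 in all its lists, and 1 of these was called lower, a number too small for a median to be read. Across sites the change of PU.1 correlated with that of p300 at r = 0.464 (rho = 0.386, 23890 sites), with H3K27Ac at r = 0.462 (rho = 0.387, 13295 sites) and with RNAPII-pS5 at r = 0.284 (rho = 0.233, 11510 sites), as descriptions over sites that share libraries.

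**Figure D4:**
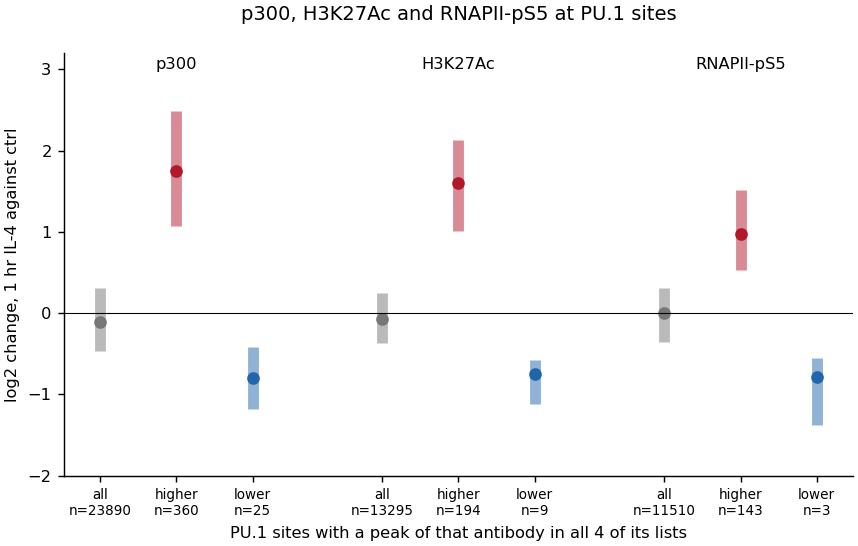
Change of p300, H3K27Ac and RNAPII-pS5 at PU.1 sites after 1 hr of IL-4. The y axis is the log2 change of 1hIL4 against ctrl, points are medians and bars the range from the lower to the upper quartile over sites, in grey for all tested PU.1 sites, red for those where PU.1 rose and blue for those where it fell, with the number of sites under each. The red medians are 1.75, 1.60 and 0.98 and the blue ones -0.80 for p300 and -0.75 for H3K27Ac, while the blue point of RNAPII-pS5 rests on 3 sites. H3K27Ac is in normalized tags and the others in MACS2 scores, so sizes are not comparable between antibodies.

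The histone deacetylases, which remove acetyl groups from histones, were compared by presence of a peak. At the 453 sites where PU.1 rose, HDAC1 was in both lists of the group at 39.96% in ctrl and 73.5% in 1hIL4, HDAC2 at 42.6% and 83.9% and HDAC3 at 21.4% and 67.8%. Over all tested sites the same shares were 36.0% and 28.02% for HDAC1, 34.5% and 34.9% for HDAC2 and 16.6% and 21.6% for HDAC3. At the 33 sites where PU.1 fell, HDAC1 went from 48.5% to 12.1%, HDAC2 from 36.4% to 30.3% and HDAC3 from 21.2% to 18.2%. There RNAPII-pS5 went from 36.4% to 9.09%, H3K27Ac from 36.4% to 30.3% and p300 from 75.8% to 81.8%. Over all tested sites RNAPII-pS5 went from 36.6% to 33.3% and H3K27Ac from 38.1% to 36.9%. Presence of p300 at sites that rose was 79.5% in ctrl and 99.1% in 1hIL4, so most of them carried p300 before IL-4, and over all tested sites it was 62.1% and 72.4%. At gained sites p300 went from 20.3% to 54.0% and at lost sites from 24.0% to 30.3%, beside 21.6% to 33.6% at sites with a PU.1 peak in 1 list of each group. These ctrl shares are held down by the thin first p300 ctrl list. In the second ctrl list alone p300 was at 39.3% of gained sites, and in the 1hIL4 lists at 57.2% and 57.7%. At lost sites it was at 37.1% in that ctrl list and at 33.1% and 34.1% in the 1hIL4 lists. At the 1-of-each sites these shares were 37.4%, 36.4% and 37.6%. Presence depends on the caller's cut-off and on depth, and it was not tested.

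Sites were then grouped by the nearest gene. The study sorted genes by their RNA response to IL-4 into clusters A to D (induced) and E (repressed), on RNA samples that are not analysed here. The share of genes with at least 1 site that rose was 46.4% for cluster A (13 of 28 genes tested), 27.8% for B (40 of 144), 21.7% for C (53 of 244), 4.68% for D (16 of 342) and 1.69% for E (9 of 531), beside 3.31% of all 12131 genes. A gene share also grows with the tested sites per gene, and each cluster had more of them than all genes together (38796 sites for 12131 genes). In sites, 15 of 117 rose in A (12.8%), 52 of 720 in B (7.22%), 65 of 1470 in C (4.42%), 18 of 1207 in D (1.49%) and 9 of 2966 in E (0.303%). Over all tested sites 1.17% rose and 0.0851% fell. None fell in A to D and 4 fell in E, numbers too small to set the clusters apart at that share. The median change was 0.53 in A, 0.35 in B, 0.26 in C, 0.02 in D and -0.12 in E, beside -0.03 for all sites, and with no centring the median of E was 0.22 while that of all sites was 0.30. At unadjusted p of 0.05, 98 sites of cluster E were higher and 187 lower (3.30% and 6.30%), beside 6.06% and 3.96% of all sites.

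**Figure D5:**
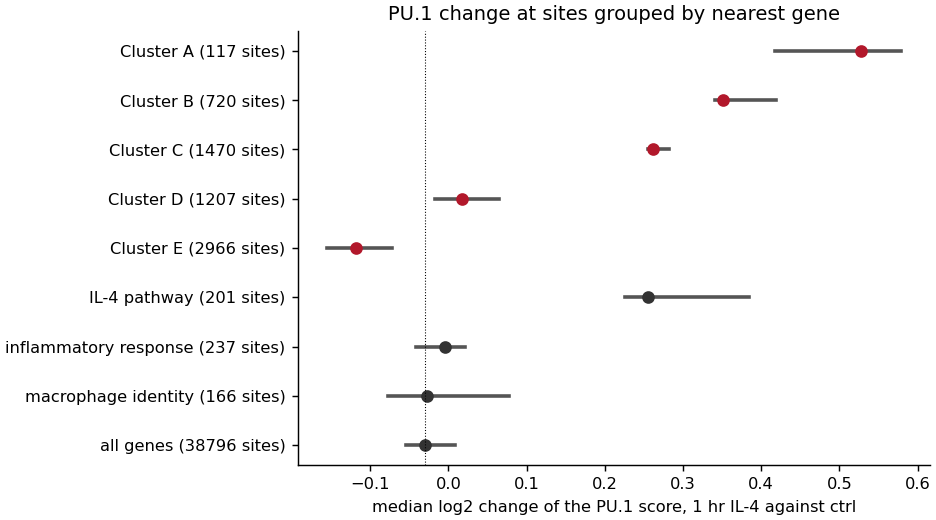
Median PU.1 change after 1 hr of IL-4 at sites grouped by nearest gene. The x axis is the median log2 change of 1hIL4 against ctrl, each row a gene list with its number of tested sites, points are medians of the fitted change, lines run from the lowest to the highest median of the 4 single pairs of a 1hIL4 with a ctrl sample, and the dotted line is the median of all sites. Cluster A lies at 0.53 and cluster E at -0.12.

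Of the 32 listed genes of the IL-4 pathway and alternative activation, 28 had a tested site and 12 had at least 1 that rose (42.9%, beside 3.31% of all genes). Of their sites 16 of 201 were higher (7.96%, beside 1.17% of all sites) and 0 lower (0.0851% of all sites), with a median change of 0.26. The share of genes also grows with the tested sites per gene, which were more in this list than over all genes. The promoter site of Arg1, the arginase of alternatively activated macrophages, 0.619 kb upstream (chr10:24927813-24928317), scored 23.4 and 6.22 in ctrl and 50.5 and 47.8 in 1hIL4 (change 1.69 ± 0.45, limma, adjusted p = 0.0300). The ctrl samples were far apart there, and both lay under the treated ones. The stronger Arg1 site 2.89 kb upstream, which holds a STAT6 motif, scored 61.2 and 41.5 in ctrl and 122 and 111 in 1hIL4 and missed the threshold (change 0.87 ± 0.25, limma, adjusted p = 0.0616).

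Tfec, a transcription factor of the MiT family in macrophages, had 3 sites that rose. Its promoter scored 39.6 and 34.5 in ctrl and 107 and 98.8 in 1hIL4, and its 2 intronic sites 34.3 and 20.7 in ctrl and 119 and 98.9 in 1hIL4, and 19.04 and 5.84 in ctrl and 50.2 and 53.6 in 1hIL4. The groups were separate at each, as at all 453 sites that rose. Socs1, a feedback inhibitor of cytokine signalling, had 2, at 90.4 and 95.6 kb from its start in introns of a neighbouring gene. These scored 20.2 and 13.4 in ctrl and 94.8 and 82.5 in 1hIL4 (change 2.10 ± 0.36), and 5.76 and 13.4 in ctrl and 53.6 and 53.9 in 1hIL4 (change 2.28 ± 0.48), and 8 further sites nearest to Socs1 were gained. Pdcd1lg2, the PD-1 ligand PD-L2, also had 2, in introns, at 15.9 and 11.3 in ctrl and 52.6 and 59.8 in 1hIL4, and at 49.6 and 49.4 in ctrl and 118 and 127 in 1hIL4.

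The lectin gene Mgl2 had a site 1.16 kb upstream at 6.64 and 2.94 in ctrl and 32.9 and 34.1 in 1hIL4, and Retnla, which encodes the secreted protein Fizz1, a site 10.988 kb upstream at 28.9 and 25.1 in ctrl and 92.0 and 66.5 in 1hIL4. Batf3, a bZIP transcription factor, had a site at 8.38 and 5.93 in ctrl and 48.4 and 55.2 in 1hIL4, and Edn1, the peptide endothelin, one at 8.40 and 3.94 in ctrl and 46.9 and 48.4 in 1hIL4. Further sites of the list that rose were at Cdh1, E-cadherin (20.6 and 16.7 in ctrl, 69.4 and 64.7 in 1hIL4), Ch25h, cholesterol 25-hydroxylase (35.8 and 11.2 in ctrl, 86.0 and 80.7 in 1hIL4), and Klf4, a zinc finger factor, at 269 kb from its start (42.5 and 51.4 in ctrl, 128 and 118 in 1hIL4). Every treated sample was above every control at these 7 sites, as at all 453 sites that rose. The groups did not overlap at 39.2% of all tested sites. Not called were the strongest sites of Ccl17 (change -0.002), Cish (0.56) and Hbegf (-0.23), and Ccl22 had no site in all 4 lists.

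Inflammatory response genes had a median change of -0.004 over 237 sites of 36 genes, beside -0.03 for all sites. At least 1 site that rose lay nearest to 3 of the 36 genes (8.33%, beside 3.31% of all genes). That share also grows with the tested sites per gene, which were more here than over all genes (38796 sites for 12131 genes). Of the 237 sites 3 were higher (1.27%, near the 1.17% of all sites) and 0 lower (0.0851% of all sites). The 3 were the Tlr4 site above, a site 10.2 kb upstream of Il1a, the cytokine IL-1α, at 53.0 and 54.7 in ctrl and 137 and 132 in 1hIL4 (change 0.99 ± 0.24, limma, adjusted p = 0.0131), and a site 48.3 kb upstream of Tnfaip3, the NF-κB inhibitor A20, at 48.5 and 35.3 in ctrl and 116 and 137 in 1hIL4 (change 1.27 ± 0.26, limma, adjusted p = 0.00128). No site of Tlr2, Clec4d, Abca1, Cd14, Fos, Nlrp3, Il1b or Tnf was called, and their strongest sites changed by -0.37 to 0.36. In that order they had only 9, 5, 13, 5, 12, 7, 4 and 2 tested sites. At the shares of all sites, 1.17% higher and 0.0851% lower, hardly any call would be found among so few. The largest fall among these genes was at an intronic Abca1 site, at 21.9 and 20.1 in ctrl and 7.65 and 8.27 in 1hIL4, which missed the threshold (change -1.73 ± 0.56, limma, adjusted p = 0.126). Macrophage identity genes had 0 of 166 sites called in either direction by limma, with a median change of -0.03. At the shares of all sites, 1.17% higher and 0.0851% lower, few calls among 166 sites would be found in any case. At unadjusted p 9 of the 166 were higher (5.42%) and 3 lower (1.81%), beside 6.06% and 3.96% of all sites. The strongest site of Spi1 itself (Sfpi1 in the files), 10.3 kb upstream of its start, scored 22.7 and 31.0 in ctrl and 14.2 and 30.8 in 1hIL4, with overlapping groups. The strongest Csf1r site, near the start of the M-CSF receptor gene, scored 112 and 68.3 in ctrl and 116 and 96.7 in 1hIL4, also with overlap.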

How the data were processed

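The 4 PU.1 samples (2 ctrl and 2 1hIL4) are deposited as peak lists called in each sample by the authors, who aligned the reads to mm10 with BWA, used MACS2 at a q-value of at most 0.01, left out ENCODE blacklist regions and assigned each peak to its nearest gene start with HOMER. The submitters' processing notes name BWA 0.7.10, SAMtools 0.1.19, HOMER 4.2 and MACS2 2.0.10. The deposited score is a −log10 p- or q-value (which of the 2 is not given in the sources used here), from 1.30 upwards. Scores under 2 were held by 0.217 to 0.938% of the PU.1 peaks of a list, which under either reading conflicts with a q-value of at most 0.01, and the reason was not tested. For H3K27Ac the authors deposited a signal, normalized tags in regions of findPeaks (size of 1000 bp, minimum distance of 2500 bp). The deposited files hold no reads, so neither depth nor counting intervals of a score could be given. For the other antibodies of the 1 hr experiment, p300, RNAPII-pS5, HDAC1, HDAC2 and HDAC3, the same MACS2 lists were used, and 28 files (RNAPII-pS2, p65 and the LPS experiment) were not used.

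PU.1 peaks overlapping by at least 1 bp were merged. Sites with a peak in all 4 lists received log2 scores, centred on the sample median, and were tested with limma 3.58.1 (eBayes with trend, R 4.3.3), with Benjamini-Hochberg adjusted p of at most 0.05. No missing score was filled in. p300, H3K27Ac and RNAPII-pS5 were tested alike on the highest score over each PU.1 site. The fit was also run on simulated data. Their spread was drawn from the fitted variance trend itself, so that run could not check the trend. Values per sample were compared with an exact permutation test. Motifs were read from RefSeq GRCm38 within 100 bp of the centre of a site. Scripts ran under SciPy 1.17.1, pandas 2.3.3, NumPy 2.4.6 and matplotlib 3.10.9 (Python 3.11.15). Groups came from the sample labels.

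One of the named sites is not reported here. Named sites were the 12 higher and the 12 lower with the largest change among sites whose 2 groups did not overlap. The 8 gained and 8 lost with the highest lower score and the 8 strongest were named too, 1 per gene in each set. Further ones were called sites and the strongest or most changed sites of listed genes, and the 8 genes with the most sites. The one exception is the 9 genes with 3 or more sites that rose, of which Asap1 and Tfec are named, chosen after the values were seen. The members, the gene lists and these rules were chosen with earlier results of these data known, and clusters A to E were taken from the study. Alternatives were no centring, quantile normalization, square root of the score, no variance trend, other p cut-offs, a peak in at least 2 lists with missing scores set to the lowest score, joining centres within 100 bp, the upper 50% of each list, a replicate block, leaving out each sample, a motif window of 50 bp and sites within 10 kb of a gene.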

Additional observations from a re-analysis of the deposited data

How the results depend on the processing

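The number of sites called was the least stable result. The 453 higher and 33 lower sites became 492 and 2 with no centring, 326 and 14 with quantile normalization, 568 and 40 on square roots, 393 and 31 with centres joined within 100 bp, 295 and 42 in the upper 50% of each list, 50 and 0 with missing scores set to the lowest score, 0 and 0 without the variance trend, 611 and 94 at an adjusted p of 0.1 and 2350 and 1535 at the unadjusted p. Leaving out 1 sample gave 0 to 767 higher and 0 to 108 lower sites, and a group of 1 sample is then assumed to vary like the other group. Without the trend, 440 of the 453 and 31 of the 33 sites kept an unadjusted p of at most 0.05, and the smallest adjusted p was 0.160. With missing scores set to the lowest score, 34 of the 50 sites were among the 453, and with no centring 421 of the 492. Gained sites were 2268 in the upper 50%, and 6320 to 14687 with 1 sample left out, where 1 list then stands for a group; lost sites were 4985 to 13565. The causes were not tested.

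The median changes at cluster A, B, C and D sites were 0.86, 0.69, 0.60 and 0.35 with no centring, and E turned from -0.12 to 0.22, against 0.30 for all sites. They were 0.97, 0.53 and 0.38 for A, B and C with missing scores filled, 0.36, 0.29, 0.20 and -0.030 for A to D in the upper 50%, and 0.84, 0.50 and 0.37 for A, B and C within 10 kb of the gene. Cluster C was at 0.23 with quantile normalization. Leaving out 1 sample gave 0.42 to 0.63 for A, 0.36 to 0.42 for B, 0.24 to 0.30 for C, -0.0044 to 0.085 for D and -0.14 to -0.062 for E. The sign of D is thus not fixed.

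At sites that rose, the p300 median was 1.83 with no centring, 1.98 with quantile normalization, 1.66 on square roots, 2.91 with missing scores filled, 1.81 with joined centres, 1.66 in the upper 50% and 1.27 to 2.37 with 1 sample left out. H3K27Ac was at 1.71 (quantile), 1.51 (square root), 2.13 (filled) and 1.16 to 2.01 (1 sample left out), and RNAPII-pS5 at 1.09, 1.71 (filled, 2 sites) and 0.76 to 1.18. At sites that fell, p300 was at -1.01 (quantile), -0.94 (joined centres) and -1.29 to -0.53, H3K27Ac at -1.46 (no centring, 1 site), -1.12 (quantile), -0.91 (square root), -0.83 (joined centres), -0.57 (upper 50%) and -1.46 to -0.49, and RNAPII-pS5 at -0.47 (quantile), -1.38 (square root), -0.32 (upper 50%) and -0.83 to -0.15. No direction turned for p300 and H3K27Ac, or for RNAPII-pS5 at sites that rose, and the RNAPII-pS5 values at sites that fell rest on 2 to 26 sites. The STAT6 motif share of sites that rose was 70% (of 50 sites) with missing scores filled, 28.04% within 50 bp (2.99% of all tested sites), and 35.3 to 64.5% with 1 sample left out, where no site was called without 1hIL4 replicate 2.

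The labels do not say whether the replicate numbers pair the samples. Deviations of same-numbered samples from their group means correlated at r = 0.0554 over 38796 sites, which cannot decide this. A fit with the replicate block gave 585 higher and 72 lower sites, with all 453 and 33 among them, and medians at its own calls of 1.66 for p300 and 1.51 for H3K27Ac at higher sites, and -0.69 for H3K27Ac and -0.32 for RNAPII-pS5 at lower sites. Of the 84 named sites 42 were called, and all 42 lost the call without the trend or without 1hIL4 replicate 2, 34 with missing scores filled, 32 without 1hIL4 replicate 1, 13 with quantile normalization, 12 with no centring and 0 under the block. Depth is unknown, and a −log10 score cannot separate depth from binding.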
